A study of Rattus norvegicus with 12 samples.

Results

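Fkbp9, Fkbp10, P3h2, P3h4, Sumf2 and Poglut3 encode proteins of the lumen of the endoplasmic reticulum (ER) that act on newly made matrix and secretory proteins, and their RNA was followed in rat NRK cells that lacked VAMP7 or ATG5. The 6 genes, of 20842 in the count table, were chosen by measured values: the study had listed each of them as changed between a knockout line and wild-type cells in these same libraries. Fkbp9, Fkbp10 and P3h2 were on its list for VAMP7 knockout cells. Fkbp9, Fkbp10, P3h4, Sumf2 and Poglut3 were on its list for ATG5 knockout cells, of which 534 lines were not read here. The differences between genotypes are therefore a description. Counts of genes past a threshold in those contrasts are given beside the share of all genes past it in the main fit. A p-value is given only for a difference that the lists did not use.

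NRK is a line of rat kidney cells, labelled epithelial. Polyadenylated RNA was sequenced from wild-type cells (WT), from VAMP7 knockout cells (VAMP7KO) and from ATG5 knockout cells (ATG5KO), with 4 libraries, numbered 1 to 4, for each genotype and 12 in all. VAMP7 is a SNARE protein of late endosomal and secretory membranes, and ATG5 is needed to build autophagosomes. All 3 lines were grown in complete medium with no treatment, and each library came from its own dish. The knockout lines were made with CRISPR/Cas9 and each was grown out from 1 sorted cell, so the genotype and the clone cannot be told apart.

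Collagen chains are hydroxylated on proline and lysine, folded into a triple helix and glycosylated in the ER before they are secreted, and the enzymes of these steps work in complexes. Fkbp10 (also called FKBP65) is a peptidyl-prolyl isomerase of the FK506-binding family that takes part in collagen folding and in lysine hydroxylation of the collagen telopeptides, and Fkbp9 is an ER isomerase of the same family. P3h2 is a prolyl 3-hydroxylase of collagens, basement membrane collagen among them, and P3h4 is a relative of the prolyl 3-hydroxylases that has no catalytic activity and joins the complex that hydroxylates lysines of collagen. Sumf2 is the paralog of the enzyme that makes the active-site residue of sulfatases, lacks that activity itself and binds its paralog. Poglut3 adds O-glucose to EGF-like repeats, the folded modules of Notch receptors and fibrillins.

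P3h4 and Fkbp10 lie next to each other on rat chromosome 10 in the order of protein-coding genes of the RefSeq annotation of GRCr8. The 250 bases before the start of P3h4 are shown because they face Fkbp10 and because both genes stood far higher in ATG5KO than in WT cells. Those before Fkbp9 are shown beside them because Fkbp9 stood lower in both knockout lines. Both come from RefSeq (GRCr8, chr10:85845477-85845726 on the minus strand for P3h4 and chr4:87436189-87436438 on the plus strand for Fkbp9) and are written 5′ to 3′ on the strand of the gene. Capitals mark every match, on either strand, to CCAAT, the letters bound by the factor NF-Y, to CCACG, which is part of the ER stress element, or to GGGCGG, the GC box of Sp1.
P3h4: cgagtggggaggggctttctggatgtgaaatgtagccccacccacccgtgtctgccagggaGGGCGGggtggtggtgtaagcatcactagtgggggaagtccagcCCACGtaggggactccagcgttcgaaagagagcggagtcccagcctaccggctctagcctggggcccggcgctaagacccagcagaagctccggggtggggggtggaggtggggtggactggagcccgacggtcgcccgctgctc
Fkbp9: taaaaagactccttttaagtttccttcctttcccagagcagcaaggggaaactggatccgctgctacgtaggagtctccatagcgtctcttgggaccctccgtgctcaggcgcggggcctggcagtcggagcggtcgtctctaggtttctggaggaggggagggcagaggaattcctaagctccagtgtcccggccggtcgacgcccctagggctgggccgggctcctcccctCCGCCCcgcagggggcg

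A promoter sequence was found for 5 of the 6 genes. The window of P3h4 held 1 CCACG and 1 GGGCGG, and that of Fkbp9 held 1 GGGCGG on the opposite strand. These letters are common, since 27.2% of the 33469 rat promoter windows of the same length held CCACG, 30.5% held GGGCGG and 34.0% held CCAAT. The 5 windows had a GC content between 52.4% in Sumf2 and 67.2% in P3h4, beside a median of 51.2% over all windows. They held 9 to 19 CpG dinucleotides, beside a median of 5. A match describes the letters and is not a binding site.

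The libraries held 21090858 to 31525111 counts, with a median of 27780687.5. Levels are given as CPM, the counts scaled to a common library total after TMM normalization, and 3 counts, taken as the floor of detection, stood for 0.0952 to 0.142 CPM of the unscaled totals. The floor covers counting error only. Vamp7 was at 111.1 ± 3.26 CPM (SD, n = 4) in WT, at 46.2 ± 5.17 in VAMP7KO and at 128.2 ± 2.15 in ATG5KO, so its RNA was lower but still present in the VAMP7KO libraries. Within each genotype the libraries numbered 1 and 2 differed from those numbered 3 and 4. Deviations from the genotype mean were correlated between libraries of different genotypes. The values were 0.529 to 0.681 for libraries of the same set and -0.682 to -0.543 for libraries of different sets. Deviations from a mean balance out, so the negative values go with the positive ones. The labels give the replicate number and no batch. The paper states that its own differential expression test was adjusted for a batch effect, without saying which libraries formed a batch. The p-values here measure the spread between these dishes only.

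The epithelial label was checked with Krt8 and Cdh16, markers that had a known symbol. Krt8, a keratin of simple epithelia, was present in all 3 lines, at 777 CPM in WT, 503 in VAMP7KO and 688 in ATG5KO. Cdh16, a cadherin of kidney epithelium, was at 1.21, 0.331 and 1.09 CPM. The summed level of 7 of 11 fibroblast or mesenchymal markers was 74.4 to 88.7 CPM in WT, 220 to 507 in VAMP7KO and 167 to 428 in ATG5KO. Of these markers, Cdh2 was at the floor in all WT libraries, and Fap in all VAMP7KO and ATG5KO libraries. The similar sums of the knockout lines hide differences between them. In the fit described below, 6 of the markers were tested in VAMP7KO against ATG5KO. At an adjusted p under 0.05, 4 were higher and 2 lower, beside 21.3% and 23.6% of all genes. Nothing is therefore read from the likeness of the sums. The part of these markers in the differences below was not tested, and in bulk RNA fewer cells of a type and less RNA per cell cannot be told apart.

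Fkbp10 was nearly silent in WT cells, higher in VAMP7KO cells and highest in ATG5KO cells. The WT libraries 1 to 4 held 1.05, 1.18, 0.296 and 0.143 CPM, from 31, 34, 9 and 4 counts. The VAMP7KO libraries held 9.22, 10.5, 3.50 and 4.11 CPM, and the ATG5KO libraries 89.98, 89.96, 62.3 and 59.2 CPM. No 2 genotypes overlapped. On the mean of 4 libraries Fkbp10 was at 0.666 ± 0.522 CPM (SD) in WT, 6.83 ± 3.54 in VAMP7KO and 75.4 ± 16.9 in ATG5KO, which put VAMP7KO at 10.3 times and ATG5KO at 113 times the WT mean. The fitted log2 fold change was 3.35 ± 0.29 (SE) in VAMP7KO and 6.94 ± 0.29 in ATG5KO against WT.

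Fkbp9, the other isomerase of the pair, stood the other way. It was at 8.34, 7.31, 6.08 and 6.21 CPM in the WT libraries, at 0.0668, 0.407, 0.253 and 0 CPM in the VAMP7KO libraries and at 0.0929, 0.104, 0.431 and 0.737 CPM in the ATG5KO libraries. The counts behind the knockout values were 2, 9, 7 and 0 in VAMP7KO and 2, 3, 12 and 16 in ATG5KO, so several of these libraries were at the floor. Every WT library lay above every knockout library, and the 2 knockout lines overlapped. The knockout means were 2.60% and 4.89% of the WT mean of 6.98 ± 1.06 CPM. The log2 fold change against WT was -5.30 ± 0.65 in VAMP7KO and -4.40 ± 0.60 in ATG5KO.

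P3h4, the neighbour of Fkbp10, was low in WT and VAMP7KO cells and stood higher in ATG5KO cells. Its WT libraries held 0.439, 0.519, 0.0329 and 0.285 CPM, and its VAMP7KO libraries 0.167, 0.136, 0.0722 and 0.329 CPM, from 1 to 15 counts. Its ATG5KO libraries held 5.30, 3.85, 2.55 and 3.32 CPM, from 71 to 114 counts. WT and VAMP7KO overlapped, and all ATG5KO libraries lay above both. The ATG5KO mean was 11.8 times the WT mean, and the log2 fold change was 3.64 ± 0.40 in ATG5KO and -0.79 ± 0.53 in VAMP7KO.

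P3h2, the prolyl 3-hydroxylase, was lower in both knockout lines by a smaller amount. Its levels were 34.2, 34.0, 58.3 and 56.2 CPM in the WT libraries, 31.1, 23.9, 27.9 and 27.9 CPM in VAMP7KO and 20.6, 22.2, 33.7 and 36.6 CPM in ATG5KO. VAMP7KO lay below WT in all libraries, while the highest ATG5KO libraries reached the lowest WT libraries. The means were 60.7% of WT in VAMP7KO and 62.0% in ATG5KO, with log2 fold changes of -0.66 ± 0.15 in VAMP7KO and -0.69 ± 0.15 in ATG5KO.

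Sumf2, of the sulfatase-modifying pair, was near its WT level in VAMP7KO cells and at 2.03 times it in ATG5KO cells. It stood at 66.6, 72.4, 33.7 and 32.5 CPM in the WT libraries, at 65.3, 76.0, 36.4 and 39.1 CPM in VAMP7KO and at 124, 135, 81.7 and 76.6 CPM in ATG5KO. All ATG5KO libraries lay above all others, though ATG5KO libraries 3 and 4 by little above libraries 1 and 2 of the other lines. Among libraries 3 and 4 alone, ATG5KO was at 81.7 and 76.6 CPM, beside 32.5 to 39.1 in the other lines. The log2 fold change was 0.10 ± 0.08 in VAMP7KO and 1.08 ± 0.08 in ATG5KO. Sumf2 overlaps Phkg1 and a non-coding gene, P3h4 a non-coding gene and P3h2 a pseudogene in the RefSeq annotation of GRCr8, and whether such overlaps touch the counts made on mRatBN7.2 was not tested.

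Poglut3, the O-glucosyltransferase, was at 391, 361, 287 and 281 CPM in the WT libraries, at 618, 605, 275 and 285 CPM in VAMP7KO and at 1008, 1004.5, 402 and 407 CPM in ATG5KO. The VAMP7KO libraries fell on both sides of the WT range, and the ATG5KO libraries lay above all WT libraries. The log2 fold change was 0.32 ± 0.16 in VAMP7KO and 0.95 ± 0.17 in ATG5KO. The limits of the study's lists were a fold of 1.5 for VAMP7KO and of 2 for ATG5KO, on the study's own folds, which were not used here. Sumf2 and Poglut3 were the members nearest to the latter. Their fitted folds here were 2.11 and 1.94, and their ratios to the WT mean were 2.03 and 2.14. P3h2 in ATG5KO, at a fitted fold of 1.61 in the lower direction, fell short of the limit of 2. It was not in the lines of that list that were read.

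**Figure D1:**
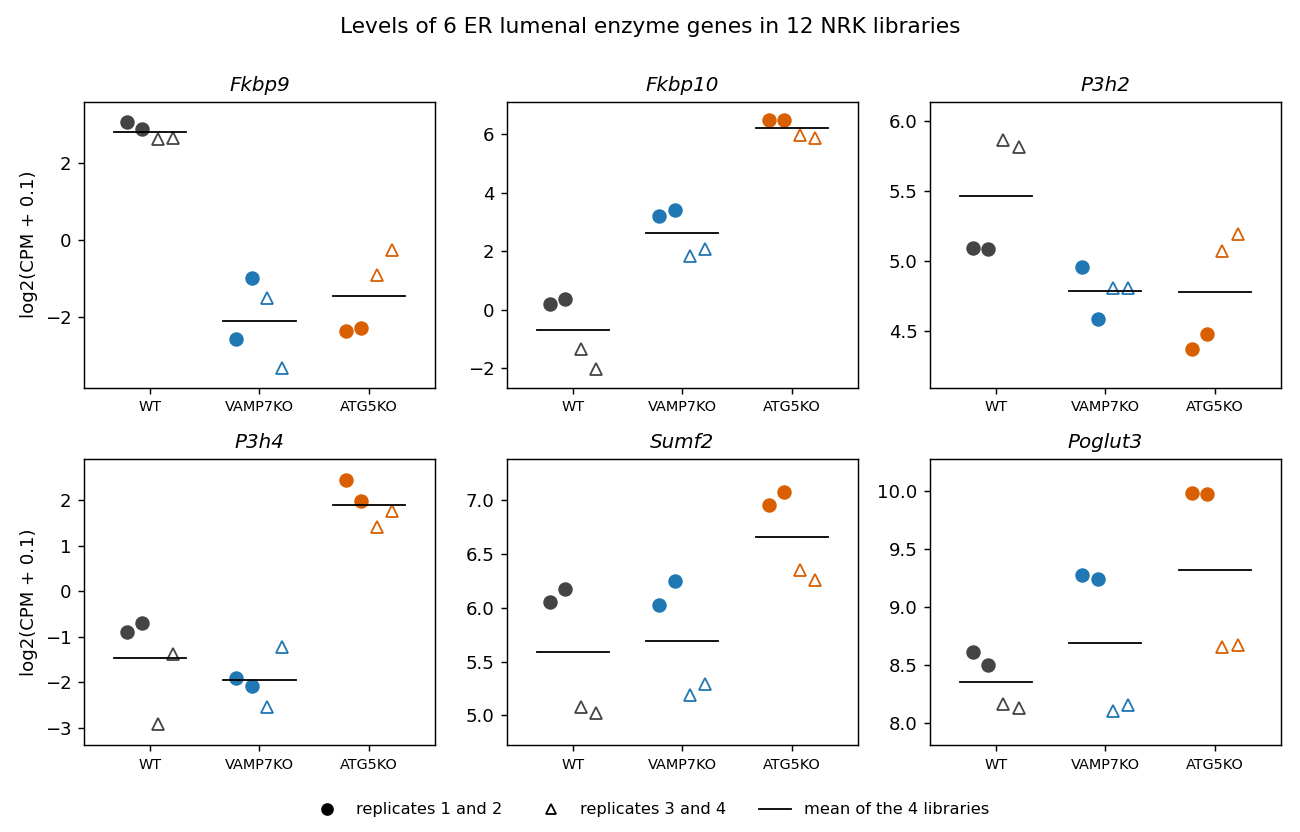
Level of each of the 6 genes in the 12 libraries, as log2 of CPM plus 0.1 on the vertical axis, by genotype on the horizontal axis. Circles are replicates 1 and 2, open triangles replicates 3 and 4, and bars the mean of 4 libraries. Fkbp10 separates all 3 genotypes (means of 0.666, 6.83 and 75.4 CPM), Fkbp9 is high in WT only (6.98 CPM), and in Sumf2 and Poglut3 the replicates of each genotype fall into 2 sets.

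In the fit across 13141 genes, 3 of these 6 passed an adjusted p of 0.05 in VAMP7KO against WT (Fkbp10 higher, Fkbp9 and P3h2 lower), beside 22.9% of all genes. All 6 did in ATG5KO against WT, 4 higher and 2 lower, beside 46.3% of all genes. Without the replicate block these counts were 2 and 4, P3h2 being lost from both and Poglut3 from the second. Since the lists that chose the genes were made on these contrasts, nothing is read from the counts. The libraries of the 2 genotypes did not overlap for 3 of 6 genes in VAMP7KO against WT, where this held for 15.5% of all genes, and for 5 of 6 in ATG5KO against WT, where it held for 28.2%. The median log2 fold change of the 6 genes was -0.28 in VAMP7KO and 1.01 in ATG5KO, beside 0.0037 and 0.0078 over all genes.

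The knockout lines were also set against each other, a contrast that shares its libraries with the contrasts against WT. Fkbp10, P3h4, Sumf2 and Poglut3 were lower in VAMP7KO than in ATG5KO, by log2 fold changes of -3.59 ± 0.23, -4.43 ± 0.45, -0.97 ± 0.08 and -0.63 ± 0.16. For Fkbp9 the value was -0.90 ± 0.85 and for P3h2 it was 0.02 ± 0.15, each smaller than or close to its standard error. An adjusted p under 0.05 was reached by 4 of the 6 genes, beside 44.9% of all genes. Without the replicate block it was reached by 2, and the share of all genes in that fit is not given here. Libraries did not overlap for Fkbp10, P3h4 and Sumf2, 3 of the 6, beside 28.4% of all genes.

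**Figure D2:**
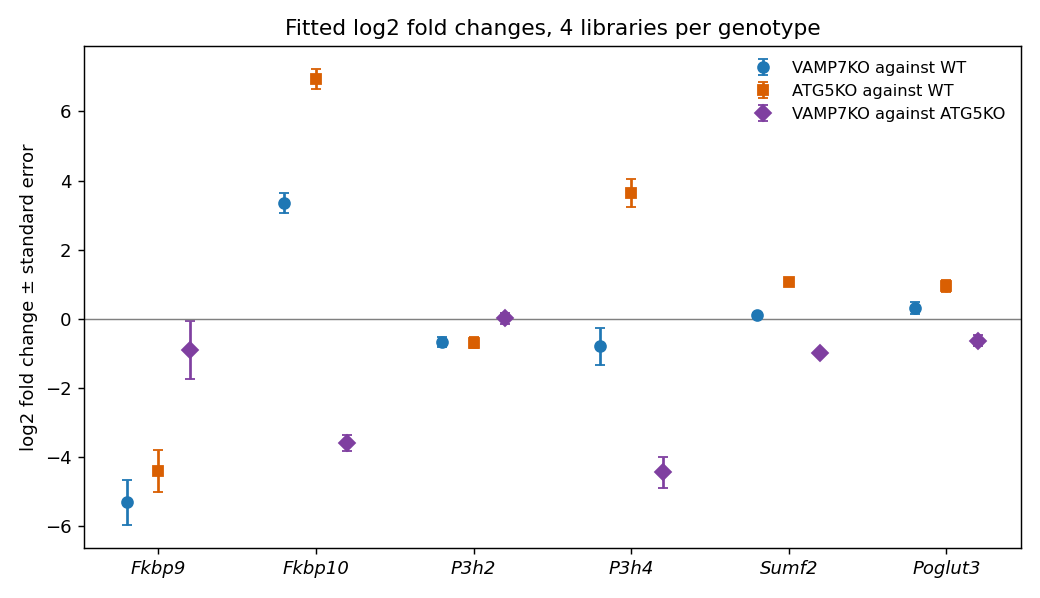
Fitted log2 fold change (vertical axis) of the 6 genes (horizontal axis) in VAMP7KO against WT, ATG5KO against WT and VAMP7KO against ATG5KO, with 4 libraries per genotype and bars of 1 standard error. Fkbp9 is at -5.30 and -4.40 against WT and Fkbp10 at 3.35 and 6.94, while P3h4 is at 3.64 in ATG5KO and -0.79 in VAMP7KO.

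The 6 genes differed in how far the libraries 3 and 4 stood from the libraries 1 and 2. Sumf2 was lower in libraries 3 and 4 in all 3 genotypes, at 0.476, 0.535 and 0.611 times the level of libraries 1 and 2 in WT, VAMP7KO and ATG5KO. Fkbp10 was lower too, at 0.197, 0.386 and 0.675 times. Poglut3 stood at 0.755 times in WT and at 0.458 and 0.402 times in the knockout lines. P3h2 was higher in libraries 3 and 4 of WT and ATG5KO, at 1.68 and 1.64 times, and level in VAMP7KO at 1.02 times.

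An interaction term between genotype and set in edgeR's quasi-likelihood model asked whether a knockout's difference from WT was itself unequal in the 2 sets, with Benjamini-Hochberg adjustment over 13141 genes. The lists that chose the genes did not use this difference, though the sets themselves were known from earlier results of these data. For the VAMP7KO effect 2 of the 6 genes passed at an adjusted p of 0.05, beside 16.5% of all genes. For the ATG5KO effect 4 of the 6 passed, beside 28.9% of all genes, and Fkbp9 is among these 4 on counts at or near the floor.

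Poglut3 passed in both lines. In VAMP7KO its log2 fold change against WT was 0.70 in libraries 1 and 2 and -0.02 in libraries 3 and 4, a difference of -0.72 ± 0.09 (SE, adjusted p = 2.96e-05). In ATG5KO it was 1.42 and 0.51, a difference of -0.91 ± 0.09 (adjusted p = 1.26e-06). The higher Poglut3 level of VAMP7KO cells was thus seen in libraries 1 and 2, and that of ATG5KO cells in both sets.

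P3h2 passed in VAMP7KO, with log2 fold changes of -0.30 in libraries 1 and 2 and -1.03 in libraries 3 and 4, a difference of -0.73 ± 0.15 (adjusted p = 0.00212). In ATG5KO its values were -0.67 and -0.70, a difference of -0.04 ± 0.15 (adjusted p = 0.884). The WT level of P3h2 was 34.0 to 34.2 CPM in the first set and 56.2 to 58.3 CPM in the second, while the VAMP7KO level lay between 23.9 and 31.1 CPM in both.

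Fkbp10 passed in ATG5KO, where its log2 fold change was 6.33 in libraries 1 and 2 and 8.07 in libraries 3 and 4, a difference of 1.73 ± 0.36 (adjusted p = 0.00148). The larger value rests on WT libraries with 9 and 4 counts. In VAMP7KO the difference was 0.93 ± 0.38 (adjusted p = 0.115). The direction of Fkbp10 against WT was the same in both sets and both lines.

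Sumf2 passed in ATG5KO with the smallest difference, 0.36 ± 0.12 (adjusted p = 0.0343), from log2 fold changes of 0.90 and 1.26. Its adjusted p lay between 0.0528 and 0.129 when WT library 2, 3 or 4 or ATG5KO library 1 or 3 was left out. In VAMP7KO the difference was 0.17 ± 0.12 (adjusted p = 0.407).

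Fkbp9 passed in ATG5KO with a fitted difference of 2.81 ± 0.84 (adjusted p = 0.0174), but on the 2, 3, 12 and 16 counts given above, so nothing is read from it. ATG5KO libraries 1 and 2 were at the floor, which puts Fkbp9 at least 64.3-fold lower than in WT there, and its log2 fold change was -3.42 in libraries 3 and 4. The adjusted p was 0.0527, 0.0776 or 0.1003 without ATG5KO library 1, 2 or 4. In VAMP7KO the difference was -0.30 ± 0.92 (adjusted p = 0.875). P3h4 passed in neither line, with differences of 1.93 ± 1.11 in VAMP7KO (adjusted p = 0.27) and 0.97 ± 0.76 in ATG5KO (adjusted p = 0.369), and its low counts leave wide errors.

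**Figure D3:**
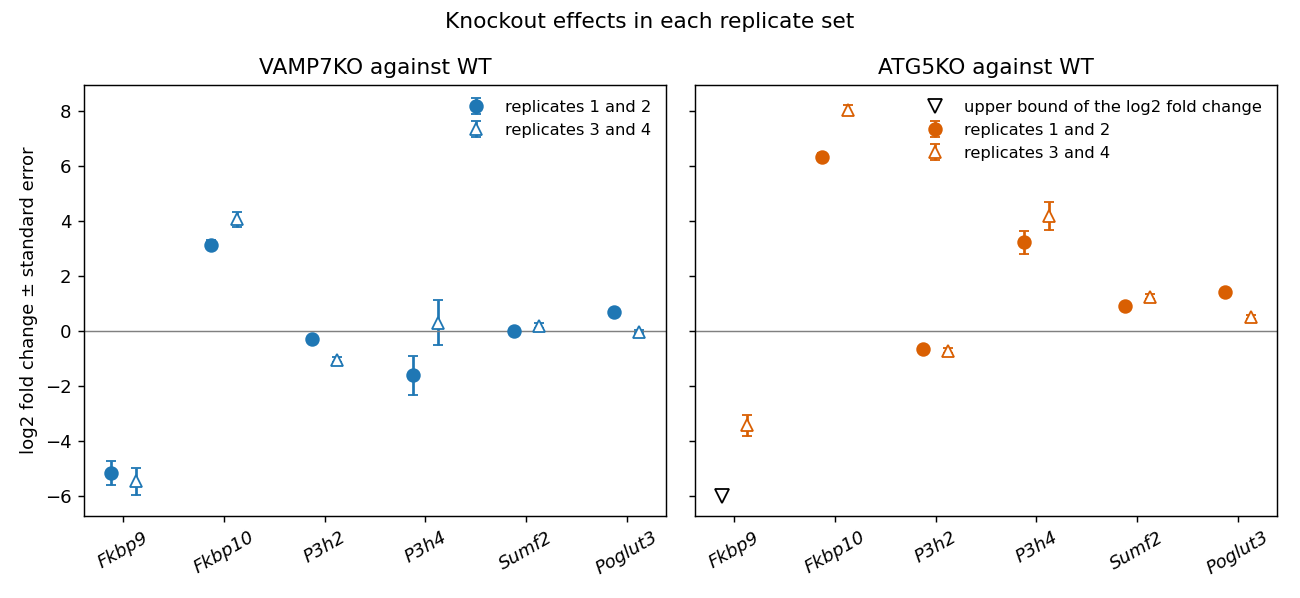
Log2 fold change against WT (vertical axis) of the 6 genes in replicates 1 and 2 (filled) and in replicates 3 and 4 (open), for VAMP7KO and ATG5KO, with bars of 1 standard error and 2 libraries per genotype and set. The black triangle is the upper bound of -6.01 for Fkbp9 in ATG5KO replicates 1 and 2, which were at the floor. Poglut3 is nearer to 0 in replicates 3 and 4 in both lines, by -0.72 and -0.91, and P3h2 is further below 0 in VAMP7KO, by -0.73.

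The genes around these enzymes were read from lists by role. Only genes the study had listed as changed have a known symbol here, so every gene named was chosen on these libraries and the counts are not independent evidence of a direction. Over all 13141 genes, 10.5% passed as higher and 12.3% as lower in VAMP7KO, and 23.6% and 22.7% in ATG5KO. Of 25 genes of collagen modification and folding in the ER, 5 were named and tested, and 4 of them are Fkbp9, Fkbp10, P3h2 and P3h4. The fifth, Creb3l1, an ER-bound transcription factor that drives collagen genes, was at the floor in all WT and VAMP7KO libraries and at 1.36 ± 0.26 CPM in ATG5KO, at least 13.2-fold higher than the floor of 3 counts per library in WT. The median log2 fold change of the 5 was -0.79 in VAMP7KO (-0.73 without Creb3l1, which has no fold there) and 3.64 in ATG5KO.

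Both named genes of collagen processing outside the cell, of 13 on the list, were higher in both lines. Loxl3, a lysyl oxidase that cross-links collagen and elastin, was at 4.80 ± 3.64 CPM in WT, 7.35 ± 3.70 in VAMP7KO and 70.3 ± 32.9 in ATG5KO, with log2 fold changes of 0.76 and 4.05. Pcolce, which enhances the cleavage of procollagen, had log2 fold changes of 0.39 and 1.12. Like Fkbp10, both were further from WT in ATG5KO than in VAMP7KO. This order is general. The median absolute log2 fold change over all genes was 0.311 in ATG5KO, beside 0.208 in VAMP7KO.

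Of 43 collagen chain genes, 10 were named, of which 5 were higher and 3 lower in VAMP7KO and 4 higher and 1 lower in ATG5KO, with medians of 0.57 and 1.43 on the log2 scale. The 5 of 10 past the threshold in ATG5KO are close to the 46.3% of all genes. In VAMP7KO the shares of all genes were 10.5% higher and 12.3% lower. The ATG5KO median is 1.30 with Col22a1 set to its bound. Col3a1, a fibrillar collagen, rose by 2.45 ± 0.32 in VAMP7KO and 2.99 ± 0.32 in ATG5KO, and Col5a3 by 1.38 ± 0.16 and 1.87 ± 0.16. The Col3a1 libraries spread widely, from 56.9 to 175 CPM in WT, 195 to 1334 in VAMP7KO and 558.5 to 1027 in ATG5KO. Col22a1, at the floor in all WT libraries, was at least 7.66-fold higher in VAMP7KO. Col6a6 was at the floor in all VAMP7KO libraries, at least 4.58-fold lower than in WT, and its value in ATG5KO was -0.03 ± 0.68. Col14a1 did not pass in either line, with values of 0.62 ± 0.69 and 1.69 ± 0.67.

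Of 16 elastic fibre genes, some of which carry the EGF-like repeats that Poglut3 modifies, 7 were named. In VAMP7KO 4 were higher and 2 lower, and in ATG5KO 5 were higher and none lower, beside 23.6% and 22.7% of all genes in ATG5KO and 10.5% and 12.3% in VAMP7KO. The medians were 0.61 and 1.72. Fbln5 (fibulin-5) rose by 2.60 ± 0.44 in VAMP7KO and 4.32 ± 0.46 in ATG5KO. Fbn1 (fibrillin-1), a substrate of O-glucosylation, fell by 5.13 on the log2 scale in VAMP7KO, from 4.40 ± 1.20 to 0.128 ± 0.168 CPM. Of its VAMP7KO libraries, 3 were at the floor, and its value in ATG5KO was 0.42 ± 0.38. Eln (elastin) was at the floor in all VAMP7KO libraries, at least 2.92-fold lower than in WT, and rose by 4.01 ± 0.53 in ATG5KO. Mfap5 rose by 2.43 ± 0.43 in ATG5KO and had a value of 0.01 ± 0.42 in VAMP7KO. Emilin1 rose by 1.51 ± 0.13 and 1.72 ± 0.13 in the fit with the replicate block. Its libraries ran from 18.9 to 78.3 CPM in WT, 51.6 to 238 in VAMP7KO and 78.1 to 238 in ATG5KO. Both knockout lines thus overlapped WT.

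**Figure D4:**
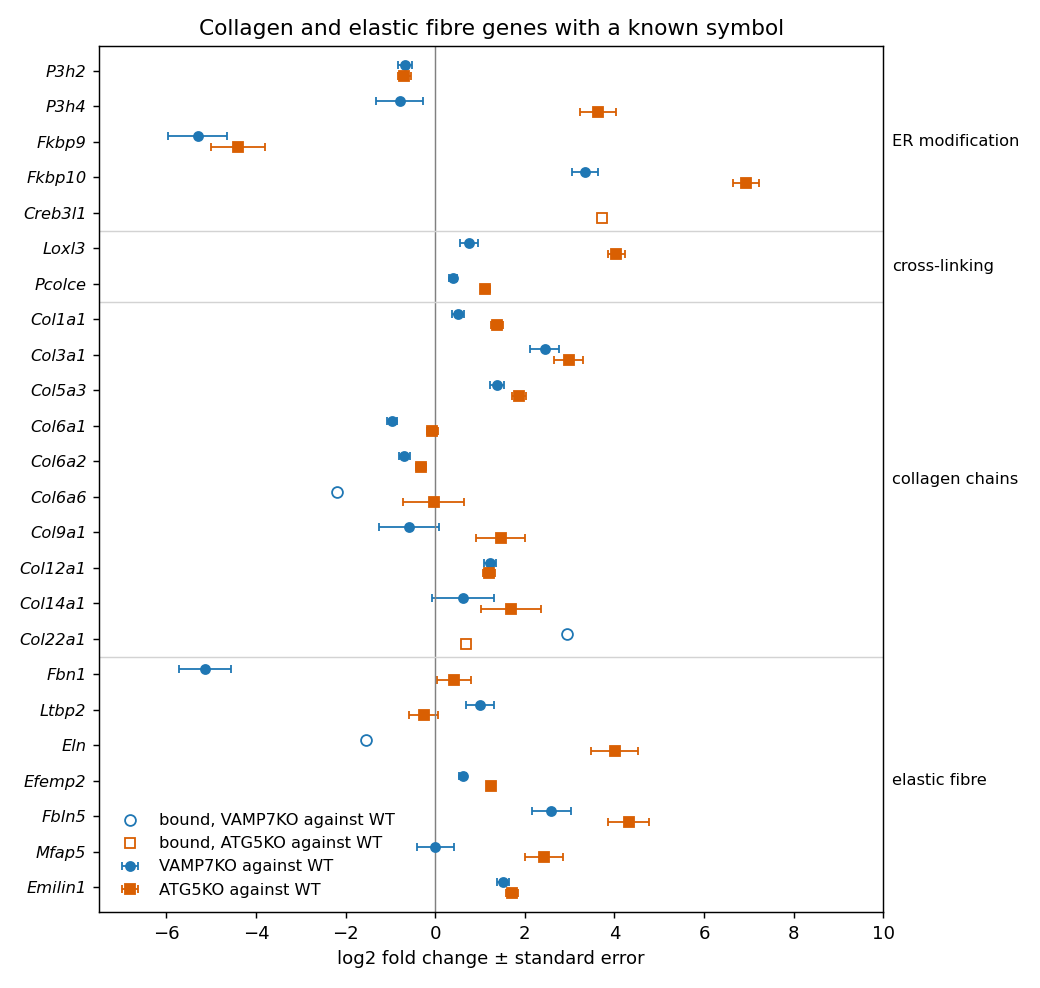
Log2 fold change against WT (horizontal axis) of the 24 tested collagen and elastic fibre genes with a known symbol (vertical axis), in VAMP7KO (blue circles) and ATG5KO (orange squares), with bars of 1 standard error and 4 libraries per genotype. Open symbols are bounds against 3 counts per library, drawn where a genotype was at the floor in all 4 libraries. Fkbp10 in ATG5KO (6.94) lies furthest to the right, and Fkbp9 and Fbn1 in VAMP7KO (-5.30 and -5.13) furthest to the left.

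Beside Poglut3, the list of 24 genes of O-glycosylation of EGF-like repeats and Notch signalling held 2 other tested genes with a known symbol. The Notch ligand Jag2 fell in both lines, from 48.6 ± 5.98 CPM to 29.6 ± 12.5 and 29.7 ± 6.25. Dll3, an inhibitory Notch ligand, rose by 1.49 ± 0.41 in VAMP7KO and fell by 2.42 ± 0.58 on the log2 scale in ATG5KO. Its levels were low, at means of 0.497, 1.40 and 0.0818 CPM in WT, VAMP7KO and ATG5KO. Of its ATG5KO libraries, 3 were at the floor. The median of the 3 tested genes was 0.32 in VAMP7KO, the value of Poglut3 itself, and -0.77 in ATG5KO, the value of Jag2. Dll1 was too low to be tested.

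Beside Sumf2, the list of 15 sulfatases and their modifying factors held 3 other tested genes. Arsi, an arylsulfatase, was at the floor in all VAMP7KO libraries, at least 2.93-fold lower than in WT, and rose by 2.21 ± 0.39 in ATG5KO. The extracellular heparan sulfate sulfatase Sulf1 rose by 0.62 ± 0.08 in VAMP7KO, where its paralog Sulf2 fell by 2.65 ± 0.63 on the log2 scale. Their values in ATG5KO were -0.12 ± 0.08 and -0.02 ± 0.42. Sulf2 was at a mean of 0.462 CPM in WT and 0.0776 in VAMP7KO, where 3 libraries were at the floor. The median of the 4 genes with Sumf2 was -1.27 in VAMP7KO (-0.73 with Arsi at its bound) and 0.53 in ATG5KO.

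Of 15 FK506-binding proteins, Fkbp6 was the only named gene beside Fkbp9 and Fkbp10. Fkbp6, a germ-cell cochaperone, was at 0.330 ± 0.257 CPM in WT, 0.0814 ± 0.0951 in VAMP7KO and 12.7 ± 3.42 in ATG5KO, with a log2 fold change of 5.30 ± 0.48 in ATG5KO. The median of the 3 was -1.99 in VAMP7KO and 5.30 in ATG5KO. Of 30 general chaperones of the ER lumen only Selenom had a known symbol, a selenoprotein that fell by 1.56 ± 0.25 on the log2 scale in VAMP7KO and rose by 1.81 ± 0.22 in ATG5KO. The other ER chaperones were not analysed here.

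Named genes with a profile like that of each enzyme were found by Pearson's r of log2 CPM over the 12 libraries, among 1304 named genes with a mean of at least 1 CPM. This is a description, since the libraries share genotypes and sets. Fkbp10 was most like Efemp2, the elastic fibre protein fibulin-4 (r = 0.992), then Sort1 (0.988) and Cavin2 (0.981). Efemp2 was at 316 ± 53.3 CPM in WT, 482 ± 78.4 in VAMP7KO and 738 ± 61.5 in ATG5KO, the same order of genotypes over a far smaller range.

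Fkbp9 was most like Tfap2b and Nfat5 (both 0.935) and Sorcs3 (0.932), and Tfap2b and Sorcs3 had means of 8.29 and 3.17 CPM in WT with 0 in ATG5KO. P3h2 was most like Ndrg1 (0.951), Tes (0.939) and Cd59 (0.923). P3h4 was most like Nrbp2 (0.981), Ifi47 (0.972) and Etl4 (0.968), and genes like Sumf2 included Psmb9 (0.985) and Pfkm (0.985). Genes like Poglut3 included Pik3ap1 (0.976) and Zfp36l1 (0.971). Among the 6 themselves, r ran from -0.730 between Fkbp10 and P3h2 to 0.887 between Sumf2 and Poglut3.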

How the data were processed

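The authors trimmed reads with cutadapt 4.2, removed rRNA reads with bowtie 2.2.8, aligned the remainder by STAR 2.7.10b (mRatBN7.2) and obtained gene counts from htseq-count 0.13.5. The strand setting is not given in the sources used here. They deposited raw counts for 20842 genes and 12 libraries, and 0 columns were left unmapped. The 6 genes and the lists were chosen with earlier results of these data known. Symbols came from the study's tables of changed genes, which name 1976 genes. Their fold change and p-value columns were not used. Atg5 was not analysed here, and some genes that the naming rule or the marker lists take in are not reported here.

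Counts were fitted with edgeR 4.0.16 (quasi-likelihood, TMM, filterByExpr, replicate number as a block, limma 3.58.1, R 4.3.3), and p-values were adjusted by Benjamini-Hochberg over 13141 genes. The standard error is the log2 fold change over the square root of F. The interaction of genotype and replicate set had no block. Same-numbered libraries of different genotypes correlated at 0.562 to 0.681 in their deviations from the genotype mean, and libraries of the same set with other numbers at 0.529 to 0.677. No library pair of a genotype agreed within sampling noise (chi-square per gene of at least 3.10).

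Genes are named by rule: the 6 genes, up to 4 of each list with the largest fold change per knockout, the 3 most alike named genes, and Vamp7. Krt8, Cdh16, Cdh2, Fap, Pcolce and the genes of the closing section outside this rule were named after their values were seen. DESeq2 1.42.0 was an alternative.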

Additional observations from a re-analysis of the deposited data

Results flagged for a closer look

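These differences between replicates 3 and 4 and replicates 1 and 2 passed the test of the difference itself, edgeR's quasi-likelihood test of the interaction with Benjamini-Hochberg adjustment, and are given on the log2 scale. In VAMP7KO against WT, P3h2 differed by -0.73 and Poglut3 by -0.72. Poglut3 was above WT in replicates 1 and 2 and level with it in replicates 3 and 4, and P3h2 lay further below WT in replicates 3 and 4.

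In ATG5KO against WT, Fkbp9 differed by 2.81, Fkbp10 by 1.73, Sumf2 by 0.36 and Poglut3 by -0.91. The Fkbp9 value rests on ATG5KO replicates 1 and 2 with 2 and 3 counts, at the floor, and nothing is read from it. The direction against WT was the same in both sets for each of these 4 genes. No library stood apart from the other 3 of its genotype by Dixon's test in any of the 18 sets of 4 values of the 6 genes. Where replicates 1 and 2 lay apart from replicates 3 and 4, this test could hardly single out 1 library. Nothing is therefore read from it.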

How the results depend on the processing

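Adjusted p was under 0.05 for 22.9% of all genes in VAMP7KO against WT, 46.3% in ATG5KO against WT and 44.9% in VAMP7KO against ATG5KO. In the same order the counts among the 6 genes were 3, 6 and 4. They were the same with DESeq2 size factors, the DESeq2 Wald test, no filter, the set as block, only the compared genotypes, and with each library left out. Without the replicate block they were 2, 4 and 2, and with replicates summed within sets 2, 4 and 3. P3h2 was lost from both contrasts with WT, and Poglut3 from ATG5KO, in each of these fits. The cause was not tested. The counts were 4, 6 and 5 in replicates 1 and 2 only, and 4, 6 and 6 in replicates 3 and 4 only. In VAMP7KO against WT, replicates 1 and 2 lost P3h2 and gained P3h4 (-1.62) and Poglut3 (0.70). Replicates 3 and 4 gained Sumf2 (0.19) there, and Fkbp9 (-2.04) in VAMP7KO against ATG5KO. P3h2 in VAMP7KO against ATG5KO was 0.02 over all libraries, 0.38 in replicates 1 and 2 only and -0.33 in replicates 3 and 4 only. For the difference of the ATG5KO effect between the sets, the main fit gave 4 of the 6 genes, beside 28.9% of all genes. Leaving out each library in turn gave 2 to 4 genes, the lowest without ATG5KO replicate 1. The shares of all genes in the alternative fits are not given here, so nothing is read from these changes in count. Levels near 3 counts limit P3h4, and Fkbp9 in the knockout lines.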

Other observations

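The 5 protein-coding genes on either side of each of the 6 genes were looked up by their order in the RefSeq annotation of GRCr8, and the neighbours below had a known symbol in the count table, so each had been listed as changed on these libraries. Nt5c3b, a nucleotidase gene next to Fkbp10, was at 29.7 ± 4.48 CPM (SD, n = 4) in WT, 34.1 ± 3.02 in VAMP7KO and 60.5 ± 8.68 in ATG5KO. Hap1, 2 genes from P3h4 on its other side, was at 0.763 ± 0.429, 0.352 ± 0.262 and 9.81 ± 1.55 CPM. Fkbp10, P3h4, Nt5c3b and Hap1 each had their highest mean in ATG5KO, but all 4 had been chosen as changed. Of the 60 neighbour positions looked up, 10 held a gene with a known symbol, so nothing is read about the stretch as a whole.

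Phkg1, which overlaps Sumf2 in that annotation, was at 0.374 ± 0.359 CPM in WT, at the floor in all VAMP7KO libraries and at 3.64 ± 1.99 CPM in ATG5KO. Psph, an enzyme of serine synthesis placed 2 genes from Sumf2, was at 58.3 ± 11.5, 94.1 ± 16.4 and 49.5 ± 10.7 CPM, with its highest mean in VAMP7KO. Exph5, next to Poglut3, was at 0.180 ± 0.194, 0.174 ± 0.223 and 6.98 ± 3.74 CPM. Pde1c, 4 genes from Fkbp9, was at 5.43 ± 4.84, 0.116 ± 0.058 and 1.90 ± 1.37 CPM.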
